A study of Mus musculus with 2 samples.

Results

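The genes described here are 9 genes of blood stem cells and early progenitors: the receptors and surface proteins Kit, Flt3, Cd34 and Procr, and the transcription factors Myb, Meis1, Hoxa9, Hhex and Mecom. They were taken by symbol from the deposited tables, which list 27179 genes by Entrez ID, and all 9 were found once. Their RNA was measured by RNA sequencing in progenitors of group 2 innate lymphoid cells (ILC2p) of wild-type C57BL/6 mice. Antibody-stained bone marrow of animals 8 weeks of age was sorted by flow cytometry with antibodies that the labels leave unnamed. The data hold 1 group of 2 libraries, each from 8 mice pooled, called pool 1 and pool 2 in accession order, with no other cell type or treatment to set them against. The heading inside each table carries the code of the other library (0 of 2 matched their own), so the names of the pools would swap in every difference below should the headings hold the true codes.

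Stem and early progenitor cells in the marrow, as a group, sense the cytokines stem cell factor and FLT3 ligand through KIT and FLT3, which are related receptor tyrosine kinases. As cells commit to the lymphoid lineages, the factors that sustain self-renewal, among them MECOM, MEIS1 and HOXA9, are turned down, FLT3 is raised in multipotent and common lymphoid progenitors, and the innate lymphoid precursors that follow keep some KIT while FLT3 is lost. ILC2p are the last marrow stage of that path, defined by GATA3 and by receptors such as those for IL-7 and IL-33.

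The sorted cells carried the ILC2 markers. All 11 listed ILC2 genes reached 1 RPKM (reads per kilobase of gene, scaled to the library's total) or more in both pools, and Gata3, the factor ILC2 depend on, had levels of 292 and 250.3 RPKM. Ly6a at 1160.4 ± 224, Thy1 at 534 ± 33.7 and Il7r at 411 ± 77.9 RPKM were the highest of the list and Gfi1 at 41.4 ± 9.15 the lowest (SD, n = 2). The library totals, recovered from the deposited values as described below, were 20216146 and 19834586 reads. A level of 1 RPKM or more in both pools is called detected below, which 40.5% of all genes were. Ratios are log2 of RPKM + 0.1, pool 2 over pool 1, which understates the difference of low genes. Counts of genes 2-fold apart use this ratio, whereas the fold values of single genes are of RPKM without the added 0.1.

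Cd34 differed most among the detected genes, Myb was the only one of the listed factors detected in both pools, and Hoxa9 was the one gene lower in pool 2. The stretches of 250 bases before the annotated starts of these 3 genes are printed to show their promoters. They come from RefSeq on GRCm38.p6, at chr1:194938571-194938820 on the plus strand, chr10:21160985-21161234 on the minus strand and chr6:52227371-52227620 on the minus strand, and are written 5′ to 3′ along the gene. Capitals mark matches on either strand to GATAA, the core bound by GATA factors, AACNG, the core bound by MYB, or TGACAG, which MEIS factors bind. Matches to different motifs may overlap.
Cd34: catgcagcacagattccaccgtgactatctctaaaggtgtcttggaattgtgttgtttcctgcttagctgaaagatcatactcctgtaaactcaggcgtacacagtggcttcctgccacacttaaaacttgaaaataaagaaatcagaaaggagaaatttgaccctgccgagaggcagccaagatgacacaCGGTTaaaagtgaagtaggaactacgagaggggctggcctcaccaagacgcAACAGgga
Myb: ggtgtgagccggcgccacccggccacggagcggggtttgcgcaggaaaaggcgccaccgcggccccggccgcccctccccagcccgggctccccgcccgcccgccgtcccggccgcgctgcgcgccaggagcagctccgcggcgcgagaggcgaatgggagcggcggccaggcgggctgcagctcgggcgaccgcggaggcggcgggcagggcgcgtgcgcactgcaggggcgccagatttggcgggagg
Hoxa9: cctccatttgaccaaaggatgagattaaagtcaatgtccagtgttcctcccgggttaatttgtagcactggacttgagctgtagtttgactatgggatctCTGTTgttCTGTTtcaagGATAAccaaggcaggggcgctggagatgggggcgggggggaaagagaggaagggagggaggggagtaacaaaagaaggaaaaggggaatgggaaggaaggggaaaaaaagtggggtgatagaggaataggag
The windows differed in base composition, with 46.4% G or C for Cd34, 81.2% for Myb and 49.6% for Hoxa9, beside a median of 52.4% over 32851 promoter windows of that length. The Cd34 window held 2 matches to AACNG, that of Hoxa9 held 2 and 1 match to GATAA, and that of Myb held none of the 3 motifs. The 9 genes have 11 such windows, of which 6 held AACNG, 3 GATAA (Hoxa9 and Mecom) and 1 TGACAG (Mecom). Over all windows the shares were 74.2%, 22.6% and 15.9%. A match is a run of letters and not a measured binding site.

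Among the receptors, Kit was the most abundant of the 9 genes. Kit (Entrez ID 16590, chromosome 5, 75574987 to 75656722, mm10) measured 11.1 RPKM in pool 1 and 22.0 RPKM in pool 2, a mean of 16.6 ± 7.77 (SD, n = 2). It was higher than 81.4% of all genes and made up 66.7% of the summed RPKM of the 9 genes in pool 1 and 60.7% in pool 2. Against the ILC2 program it was low, since Gata3 exceeded it 26.5-fold in pool 1 and 11.4-fold in pool 2.

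Flt3 (Entrez ID 14255, chromosome 5, 147330741 to 147400489) was much lower than its relative, with 0.703 RPKM in pool 1 and 1.45 RPKM in pool 2 (1.08 ± 0.526, n = 2). It passed 1 RPKM in pool 2 alone. The Kit level exceeded that of Flt3 by nearly the same factor in both pools, 15.7-fold and 15.2-fold. The RNA of its ligand, Flt3l, was present in the same cells at 96.4 and 77.3 RPKM, whereas Kitl, which encodes stem cell factor, had 0.0726 RPKM in pool 1 and was listed at 0 in pool 2.

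Cd34 (Entrez ID 12490, chromosome 1, 194938821 to 194961292), which encodes a sialomucin of stem, progenitor and endothelial cells, had 1.26 RPKM in pool 1 and 4.48 in pool 2 (2.87 ± 2.28, n = 2). Procr (Entrez ID 19124, chromosome 2, 155751125 to 155755478), which encodes the endothelial protein C receptor found on stem cells and endothelium, was at 0.0329 and 0.201 RPKM. These values correspond to 1 read in pool 1 and 6 in pool 2. At the Procr length, 3 reads equal 0.0987 RPKM in pool 1, so its level there was below what can be told from 0.

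The factors fell into a group near 1 to 4 RPKM and a group near 0. Myb (Entrez ID 17863, chromosome 10, 21124930 to 21160984), a factor that progenitors need to multiply and that many lymphoid precursors keep, had 1.40 RPKM in pool 1 and 3.46 in pool 2 (2.43 ± 1.45, n = 2). Meis1 (Entrez ID 17268, chromosome 11, 18880428 to 19019651), a homeobox factor that binds DNA together with HOX proteins, was at 0.934 and 2.21 RPKM (1.57 ± 0.904). Hhex (Entrez ID 15242, chromosome 19, 37434841 to 37440731), a homeobox repressor used by early lymphoid progenitors, was close to it at 0.810 and 2.28 RPKM (1.54 ± 1.04). All 3 were lower in pool 1, where Meis1 and Hhex lay under 1 RPKM.

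Hoxa9 (Entrez ID 15405, chromosome 6, 52223097 to 52227370), the homeobox factor that partners with MEIS1, had 0.348 RPKM in pool 1 and 0.0444 in pool 2. It was the only one of the 9 genes that was higher in pool 1. Mecom (Entrez ID 14013, chromosome 3, 29951296 to 30509759), a zinc finger factor of long-term stem cells, was at 0.0180 and 0.165 RPKM. Its pool 1 value lay under the 0.0270 RPKM that 3 reads equal at its length, and the pool 2 value of Hoxa9 was the 0.0444 RPKM of 3 reads.

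**Figure D1:**
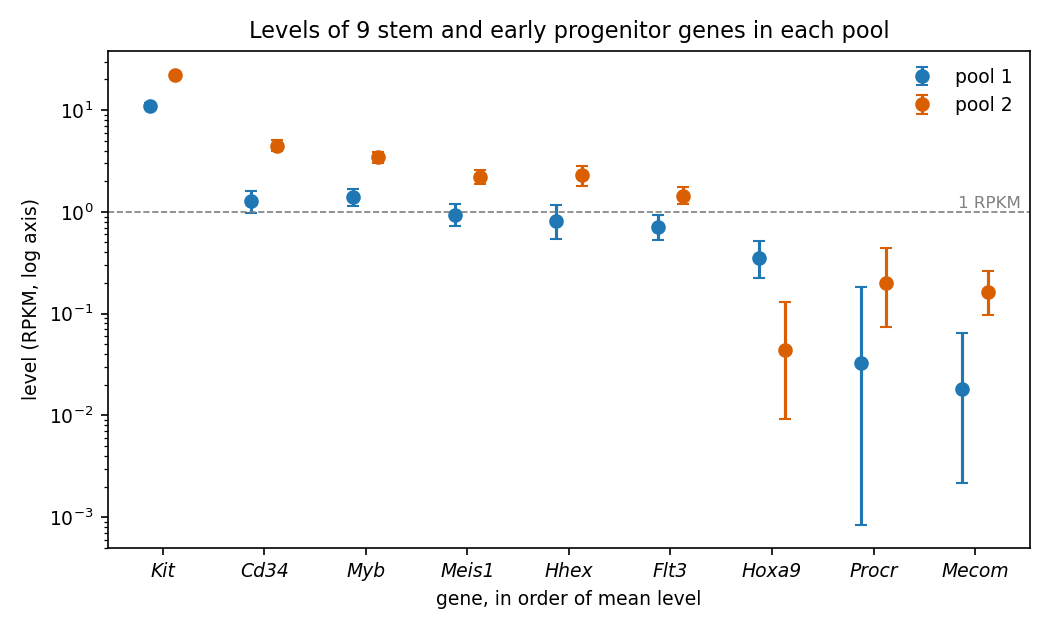
Level of each of the 9 genes in pool 1 and pool 2 (RPKM, log axis), in order of the mean level, with 95% exact Poisson intervals that cover counting error only. Kit stands apart at 11.1 and 22.0 RPKM, 5 genes lie around the dashed line at 1 RPKM, and Hoxa9, Procr and Mecom lie below 0.4 RPKM in both pools.

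In order of the mean, the levels ran Kit, Cd34, Myb, Meis1, Hhex, Flt3, Hoxa9, Procr and Mecom. Of the 8 neighbouring pairs in this order, 6 had overlapping ranges over the pools. The ranges were separate only between Kit and Cd34 and between Flt3 and Hoxa9. Kit exceeded the next gene 7.89-fold in pool 1 (Myb) and 4.92-fold in pool 2 (Cd34). Cd34 and Myb, Meis1 and Hhex, and Hoxa9 and Procr each stood in opposite order in the pools. With Kit, Cd34 and Myb, 3 of 9 genes were detected, or 33.3%. That share was 40.5% over all genes and 63.9% over the 17233 genes above 0 in either pool. The median level of the 9 genes on the log2 scale was 0.56, beside -1.82 over all genes and 2.31 over those above 0. Since the cells of a group were lysed together, a few cells with much of an RNA and many cells with little of it cannot be told apart.

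The second description is of the difference between the pools, which have 1 library each and therefore no replicate check. Of the 9 genes, all but Hoxa9 were higher in pool 2 by any amount, as were 57.0% of the 17233 genes above 0 in either pool. A 2-fold higher level in pool 2 was reached by 6 of them, beside 5.27% of those genes, and in pool 1 by 1, Hoxa9, beside 3.63%. Procr and Mecom among the 6, and Hoxa9, had few reads, and both shares are over genes of all levels. At a mean of 0.05 to 0.5 RPKM, where these 3 genes lie, the shares were 16.0% and 13.0%. The 3 detected genes were all higher in pool 2, as were 57.3% of all detected genes. Cd34 and Myb were at least 2-fold higher in pool 2, as were 1.60% of the detected genes, and none was 2-fold higher in pool 1, beside 0.962% (2.56% in either direction). The median log2 ratio was 1.24 over these 3 genes and 0.04 over the 11013 detected genes. The summed level of all 9 genes was 16.6 RPKM in pool 1 and 36.3 in pool 2.

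Whole reads could be recovered from the steps of the deposited values and give each ratio a counting interval, which compares these 2 libraries and not conditions. Cd34, with 67 reads in pool 1 against 233 in pool 2, had a 3.54-fold higher level in pool 2 (95% exact interval 2.69 to 4.72). Myb had 107 and 259 reads and was 2.47-fold higher (1.96 to 3.12). Kit, with 1158 and 2266 reads at the length nearest its annotation, was 1.99-fold higher (1.86 to 2.14). At the shortest length the values allow, Kit had 579 and 1133 reads, and the interval was 1.80 to 2.21. The log2 ratio of Kit, 0.99, lay just inside the 2-fold bound. Cd34 thus exceeded Kit in its ratio with intervals that do not touch, while those of Myb and Kit overlap.

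The 3 genes that passed 1 RPKM in pool 2 alone are higher there by that choice, and their ratios are a description. Hhex had 29 and 80 reads and was 2.81-fold higher in pool 2 (1.82 to 4.46), Meis1 65 and 151 reads and 2.37-fold (1.76 to 3.22), and Flt3 52 and 105 reads and 2.06-fold (1.46 to 2.93). With the added 0.1 RPKM, the log2 ratio of Flt3 was 0.95, so it was not counted as 2-fold higher. Among all 2806 genes with a mean of 1 to 5 RPKM, where these 3 genes, Cd34 and Myb lie, 7.48% were at least 2-fold higher in pool 2, 3.31% in pool 1, and 59.5% were higher in pool 2 by any amount. The median log2 ratio over that band was 0.10, and the middle 50% of its genes ran from -0.20 to 0.41. Meis1, Hhex and Flt3 enter the band only through their pool 2 values, so no count of them is set against it. The band was chosen after the values were seen.

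The 3 lowest genes had too few reads for a firm ratio. Mecom had about 2 and 18 reads and was 9.17-fold higher in pool 2 (2.20 to 81.5). Its whole reads could also be 1 and 9, which gives 1.27 to 402. Procr, with 1 and 6 reads, had a ratio of 6.12 with an interval from 0.742 to 281, which holds equality. Hoxa9 went the other way, with 24 reads in pool 1 and 3 in pool 2 at the length nearest its annotation, a 7.85-fold higher level in pool 1 (2.38 to 40.7). At the shortest length the values allow it had 8 reads and 1, and the interval was 1.05 to 348. Among genes with a mean of 0.05 to 0.5 RPKM, 16.0% were at least 2-fold higher in pool 2 and 13.0% in pool 1, so a 2-fold difference at this level was common in either direction.

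**Figure D2:**
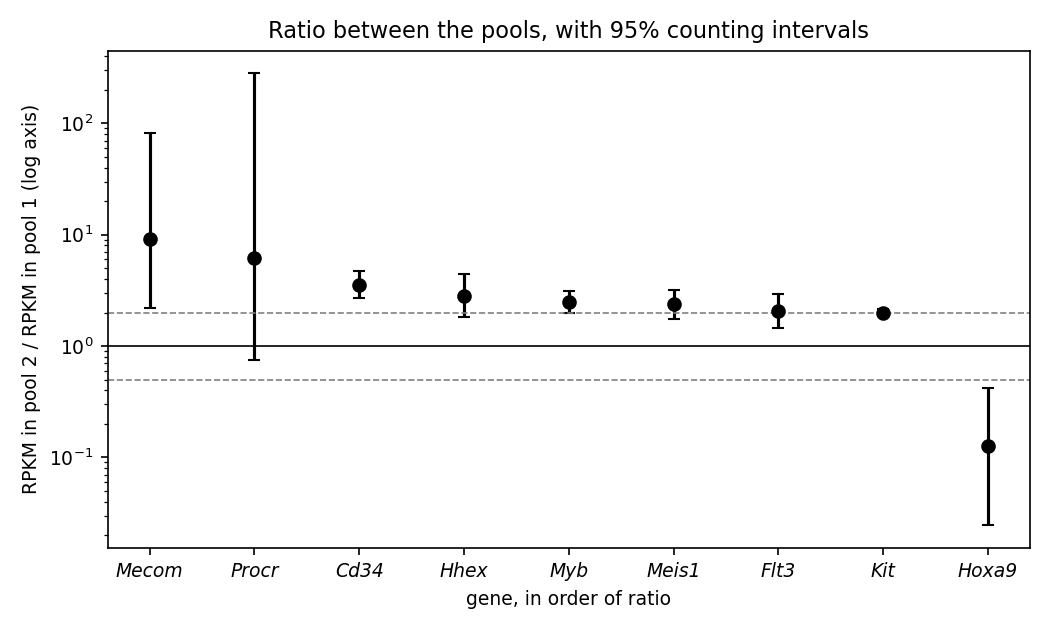
Ratio of RPKM in pool 2 to RPKM in pool 1 for each gene (log axis) with its 95% exact counting interval, with dashed lines at 2-fold in either direction. For 7 genes the interval lies above equality, that of Procr (0.742 to 281) holds it, and that of Hoxa9 lies below it.

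**Figure D3:**
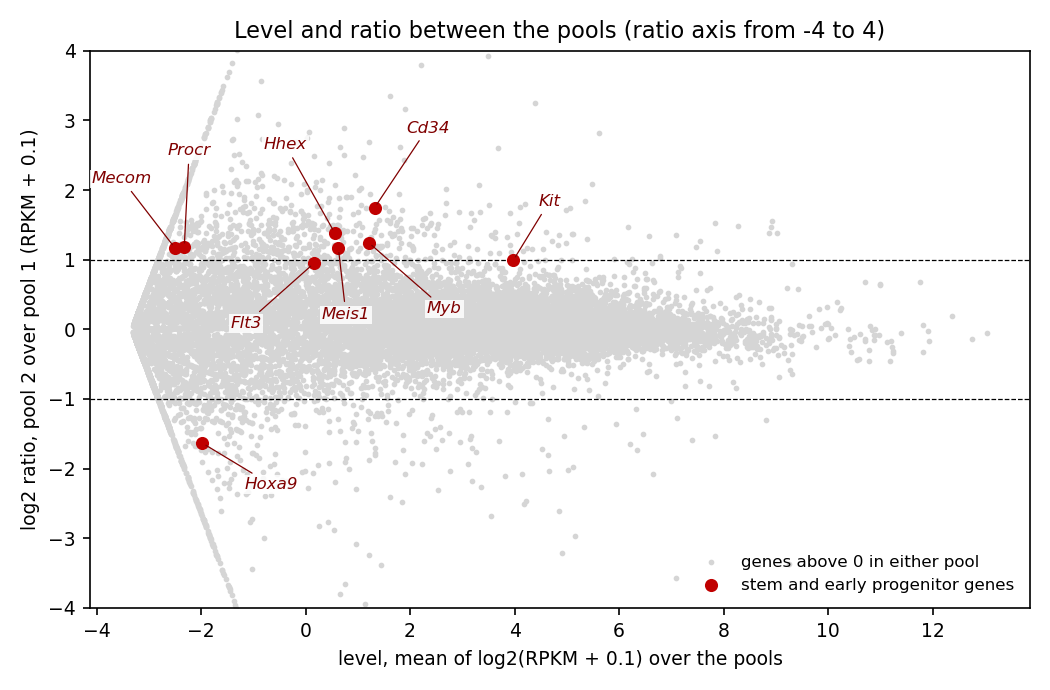
Log2 ratio of pool 2 over pool 1 against the mean log2 level for genes above 0 in either pool (grey; 61 lie beyond the drawn ratio range) and the 9 genes (red), with dashed lines at 2-fold. Cd34, Hhex, Myb, Meis1, Procr and Mecom lie above the upper line, Kit and Flt3 lie just under it, and Hoxa9 lies below the lower line.

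Annotated neighbours limit some of these values. Exons of 4 genes (Cd34, Mecom, Meis1 and Myb) overlap exons of a gene on the opposite strand in GENCODE, and the strand setting of the counting is not given, so reads of both strands may be joined there. Hoxa9 exons overlap the microRNA gene Mir196b and those of Meis1 the gene Gm37818, on the same strand.

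HOX proteins, their PBX partners and the MEIS family act together on DNA, and outside Hoxa9 and Meis1 the list of that family held 21 genes. Of these, 7 were detected, 4 of the 7 higher in pool 2, and none was 2-fold apart, with a median log2 ratio of 0.07. All 11 measured genes of the HOXA cluster were under 1 RPKM in both pools, and Hoxa11 and Hoxa13 were among those listed at 0. Hoxa9 was the highest of the cluster in pool 1 but only the seventh in pool 2, where Hoxa7 was highest at 0.362 RPKM. The ranks rest on few reads, in pool 2 at most 3 for Hoxa9 and 14 for Hoxa7, so this order is not firm. Among the 10 other HOXA genes, 6 were higher in pool 2 by any amount, beside 57.0% of genes above 0 in either pool. Only 1, Hoxa6, was higher in pool 1, with 4 reads and 0 reads, or 1 and 0 at the shortest length. These directions rest on few reads, such as 3 in each pool for Hoxa3 and 0 and 2 for Hoxa2, and are not firm. The abundant members were Pbx2 at 34.3 ± 0.711 RPKM, Pknox1 at 15.3 ± 0.546 and Meis3 at 14.4 ± 0.718. Meis3 had 14.9 and 13.9 RPKM in pools 1 and 2, while its relative Meis1 had 0.934 and 2.21.

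Of 22 other transcription factors of stem and multipotent cells, 16 were detected. Ikzf1, the lymphoid factor Ikaros, was highest at 161 ± 3.18 RPKM, followed by Hlf, a bZIP factor of stem cells, at 55.2 ± 5.69, and Fli1, an ETS factor, at 36.2 ± 4.26. Hlf exceeded Kit 4.63-fold in pool 1 and 2.69-fold in pool 2. Among the 16, 11 were higher in pool 2, and only Tal1, a basic helix-loop-helix factor of blood formation, was at least 2-fold higher, at 1.26 and 2.86 RPKM. Gfi1b, a repressor of erythroid and platelet precursors, was at 0.923 and 2.44 RPKM. The median log2 ratio of the detected factors was 0.11, and Nkx2-3 was lowest, at 0 in pool 1 and 0.0716 RPKM in pool 2.

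Of 15 other surface genes of stem and multipotent cells, 9 were detected, 6 of them higher in pool 2 and none 2-fold apart, with a median log2 ratio of 0.37. Ly6a, which encodes Sca-1 and marks ILC2 as well as stem cells, stood at 1160.4 ± 224 RPKM, Cd27 at 139 ± 2.14 and Cd48 at 111 ± 29.0. Itga2b, a platelet integrin chain, was at 0.662 and 1.82 RPKM, and Csf3r, the G-CSF receptor, at 0.819 and 1.78. Robo4 was listed at 0 in pool 1 and stood at 0.0273 RPKM in pool 2.

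Of 22 ligands, relatives and signalling partners of KIT and FLT3, 19 were detected, 11 of the 19 higher in pool 2, none 2-fold apart, and the median log2 ratio was 0.06. Pik3cd, a catalytic subunit of PI3-kinase, was at 101 ± 14.2 RPKM, Flt3l at 86.9 ± 13.5, and the phosphatase gene Inpp5d at 93.1 RPKM in pool 1 and 96.9 in pool 2. Pdgfra, a related receptor, was lowest, with 0.0147 RPKM in pool 1 and a listed 0 in pool 2. Relatives and partners of MYB, MECOM, HHEX and PROCR had 12 of 16 detected, 5 of the 12 higher in pool 2, none 2-fold apart, and a median log2 ratio of -0.04. Ctbp1, a corepressor that MECOM recruits, was at 147 ± 5.07 RPKM, F2r, the thrombin receptor, at 89.9 ± 15.8 and the corepressor gene Tle3 at 32.3 ± 0.149. Proc was listed at 0.

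Genes of the early lymphoid stage had 7 of 11 members detected, 4 of the 7 higher in pool 2, with a median log2 ratio of 0.14. Il7r, the receptor that common lymphoid progenitors and ILC2 share, was at 411 ± 77.9 RPKM and Satb1 at 39.0 ± 3.76. Dntt, the polymerase that adds bases at antigen receptor joints, had 0.604 RPKM in pool 1 and 3.88 in pool 2, 6.43-fold higher, and Cnn3 was at 1.06 and 3.17. Rag2, a recombinase gene, was at 0 and 0.0743 RPKM. All 13 ILC precursor genes were detected, 8 of them higher in pool 2, with a median log2 ratio of 0.16. Tox2 was 2.67-fold higher in pool 2, at 1.92 and 5.12 RPKM, and Id2, the inhibitor of E proteins, 2.48-fold higher in pool 1 at 709.7 and 287. The most abundant of them were Itgb7 at 627 ± 2.15 RPKM and Cxcr6 at 607 ± 173.

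Several of the 9 genes are also used by other marrow cells, so the markers of those cells are given beside them. Their part in the ratios above was not tested. Mast cells and basophils carry KIT or CD34: 6 of 14 of their genes were detected, 2 of the 6 higher in pool 2, and the summed level was 115 RPKM in pool 1 and 110.1 in pool 2. The mast cell protease genes Cma1, Mcpt2, Mcpt4, Tpsab1 and Tpsb2 were at 0 in both. The highest were Cpa3 at 43.8 ± 9.02 RPKM, Prss34 at 37.8 ± 6.72 and Mcpt8, a basophil protease, at 21.6 ± 7.16. Hdc was 2.14-fold higher in pool 2 and Fcer1a 2.25-fold higher in pool 1.

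Granulocyte-monocyte progenitor genes were higher in pool 2 in all 8 of 9 that were detected, with a median log2 ratio of 0.55 and a summed level of 199.7 RPKM in pool 1 and 289.7 in pool 2. Mpo, the myeloperoxidase gene, was at 71.7 and 93.0 RPKM, Elane at 45.0 and 70.6, Prtn3 at 38.0 and 59.3 and Cebpe, a factor of granule formation, at 1.92 and 5.95. Erythroid and megakaryocyte genes had 4 of 9 detected, 3 of the 4 higher in pool 2, and sums of 27.1 and 45.5 RPKM. Tfrc and Gata1 were at 7.52 ± 1.77 and 7.25 ± 0.234 RPKM, and Ppbp was lowest at 0.229 and 0.280. Epor was at 0.892 and 2.45 RPKM and Pf4 at 0.673 and 1.80. None of the members of either list was at 0 in both pools.

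B cell and B precursor genes had 2 of 8 detected, both higher in pool 2, with sums of 36.7 and 60.2 RPKM. Cd79b was highest at 33.5 and 47.9 RPKM, Cd79a was at 1.12 and 2.39, Vpreb1 at 0.644 and 1.64 and Ebf1 at 0.0220 and 0.157. Pax5 had 0.123 RPKM in pool 1 and 5.09 in pool 2, where it was 41.4-fold higher. Endothelial genes, which matter for Cd34, Procr, Mecom and Hhex, had 1 of 9 detected, Pecam1 at 23.8 ± 3.75 RPKM. The sums of that list were 22.3 and 30.0 RPKM, mostly from Pecam1 at 21.2 and 26.5. Cdh5 and Kdr lay under 0.1 RPKM in both pools, Plvap was at 0.0981 and 0.300, and Egfl7 was at 0.791 and 2.64. Tie1 was at 0.0510 and 0.221, Vwf at 0.0168 and 0.154, Emcn at 0.0677 and 0.104 and Robo4 at 0 and 0.0273 RPKM. Dendritic cell genes, which matter for Flt3, had 5 of 9 detected, 4 of the 5 higher in pool 2, with sums of 144.5 and 150.1 RPKM. Bst2, which other cells also express, was at 135 ± 2.51 and made up most of these sums, with 133.2 RPKM in pool 1 and 136.7 in pool 2. Tcf4 was at 5.50 ± 0.998, Xcr1 at 2.15 ± 0.156 and Clec9a at 0.0150 and 0.199.

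Cell division and recent stimulation are states that can also differ between samples of sorted cells, and their genes are given for the same reason. Their part in the ratios was not tested. Cell cycle genes, which accompany Myb in dividing cells, had 10 of 12 detected, all 10 higher in pool 2, with a median log2 ratio of 0.74. Top2a was at 4.37 and 10.3 RPKM, Ccnb1 at 0.577 and 1.74 and Bub1 at 0.604 and 1.65, whereas Pcna, Mcm3 and Mcm2, which act in DNA replication, were 1.18-fold, 1.16-fold and 1.14-fold higher in pool 2. Immediate early genes were higher in pool 1 in all 9 of 10 that were detected in both pools, with a median log2 ratio of -3.57. Fos had 2441 RPKM in pool 1 and 49.6 in pool 2, Zfp36 at 2786 and 120.3 and Junb at 1970 and 189.7, and Egr2 was lowest at 1.27 and 0.799. ILC2 genes, by contrast, had a median log2 ratio of 0.04, with 7 of 11 higher in pool 2 and none 2-fold apart.

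**Figure D4:**
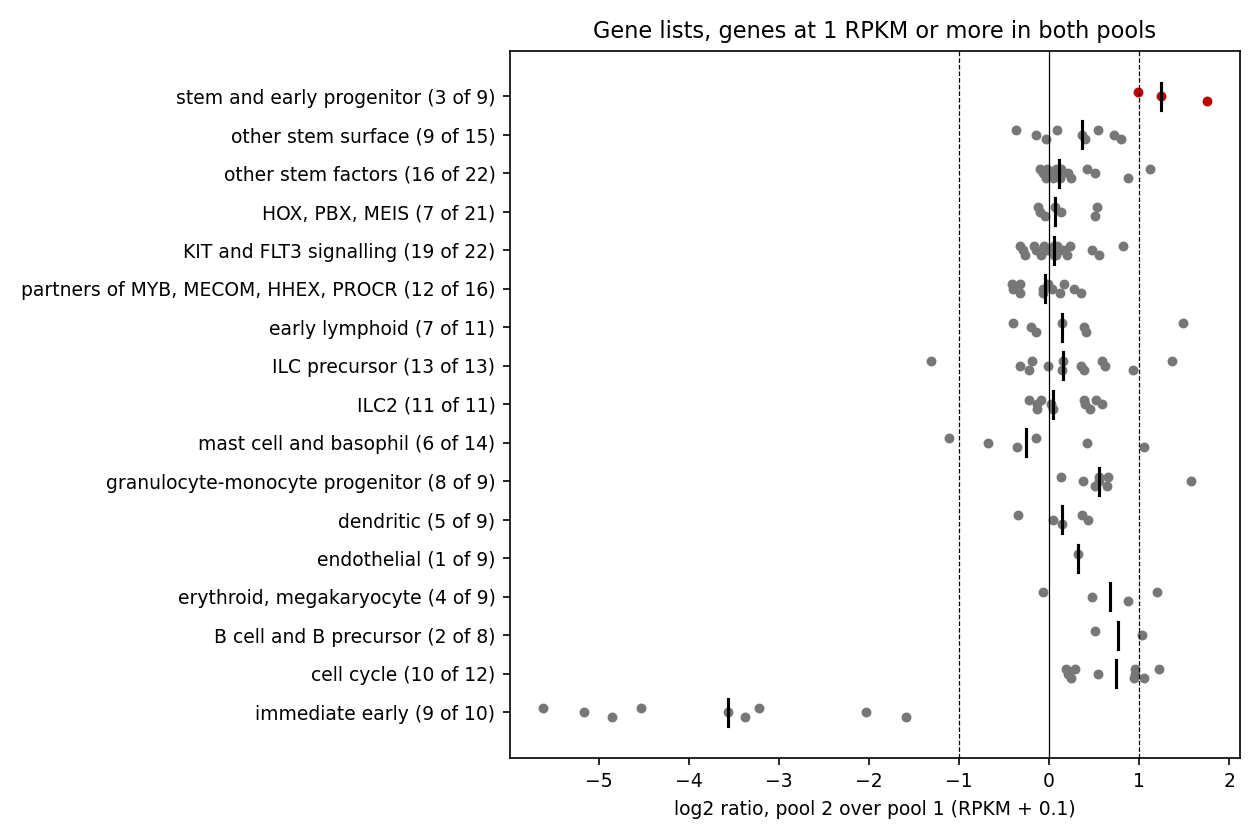
Log2 ratio of pool 2 over pool 1 for the genes of each list at 1 RPKM or more in both pools (points, with how many of how many in brackets) and their median (black bar), with dashed lines at 2-fold. The 3 detected stem and early progenitor genes lie at 0.99 to 1.75, the ILC2, HOX and KIT signalling lists centre near 0, the cell cycle genes at 0.74, and the immediate early genes at -3.57.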

How the data were processed

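RNA of 2 libraries of sorted ILC2p was prepared with the Illumina TruSeq RNA kit from 100 ng of total RNA, per the labels. The authors deposited RPKM values, per the files' values, 1 per Entrez gene ID and library. Tools listed in the submitters' processing notes, with no role for each, are featureCounts, CASAVA 1.8.2 and edgeR in versions 3.8.2 and 3.22.0, and the build is mm10. Neither the aligner nor the strand setting is stated in the labels.

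The 9 genes, the lists and the alternatives were chosen with earlier results of these data known, and no count model or p-value was used. Tables were assigned to samples as deposited, not by their headings. Whole reads were recovered by finding, at annotated exon lengths (GENCODE M21, same build), the library total that gives whole reads, then the shortest gene length from 20 to 130000 bases that gives whole reads in both pools within rounding. At the annotated lengths themselves, the chosen totals gave whole reads for 77 of 400 genes searched in pool 1 and 76 of 400 in pool 2. Some length in the range gave whole reads for 985 of 985 randomly drawn genes. With totals wrong by 1 part in 1000 this held for 14 of 200. That check searched a shorter range of lengths, so its share is not like for like. The length was multiplied to the nearest whole multiple of the annotated one, which for the 9 genes fell within 6% of it except for Mecom (125.6%). Intervals are 95% exact Poisson (levels) or exact conditional binomial (ratios), and like the 3-read floor they cover counting error only, since reads without molecular identifiers are not independent molecules. The recovery and the fold calls were tested on simulated data. Named genes were the 9 genes and, of each other list, the 3 highest, the lowest, and up to 3 with the largest ratio in each direction if 2-fold apart with a mean of at least 1 RPKM. Others (Gata3, Kitl, Hoxa2, Hoxa3, Hoxa6, Hoxa7, Cdh5, Emcn, Kdr, Tie1, Vwf and the mast cell proteases at 0) were chosen after their values were seen. Some genes that the rule takes are left out. Likeness of pattern to other genes was not computed, since 2 libraries of 1 group hold no pattern. Promoter windows of all 9 genes matched RefSeq by symbol. Python 3.11.15, pandas 2.3.3, numpy 2.4.6, scipy 1.17.1 and matplotlib 3.10.9 were used.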

Additional observations from a re-analysis of the deposited data

How the results depend on the processing

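The median level of the 9 genes was 0.56 (log2), ranging from -0.14 to 1.21 with either pool left out, and 1.92 in reads scaled to the library total but not to gene length. The 3 detected genes became 6 at 0.5 RPKM or in either pool and 1 at 5 RPKM. The count ranged from 3 to 6 with 1 pool left out, 6 being that without pool 1. The 2 detected genes at least 2-fold apart became 1 with a pseudocount of 1 (Cd34), 4 at 0.5 RPKM, 7 with no filter and 0 at 5 RPKM, where Kit alone was tested. For 8 of the 9 genes, all but Procr, the counting interval left out equality, an alternative added after the values were seen. The other RPKM filters admit more or fewer genes, and the pseudocount of 1 shrinks each ratio of low genes. The median log2 ratio ran from 0.94 to 1.30 over the settings. Scaling the pools by the median ratio or the upper quartile shifted pool 2 against pool 1 by -0.044 and -0.056 (log2). These shifts are far smaller than the smallest ratio of the 9 genes (Flt3, 0.95), and a pseudocount cannot change a sign. The direction of each gene was therefore fixed under these settings and was not tested by them. Depth limits Hoxa9, Mecom and Procr, with 24 reads or fewer in either pool. No paired analysis was possible because there is 1 group.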
